A study of Homo sapiens with 4 samples.

Results

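The IFIT genes are the family of interferon-induced genes with tetratricopeptide repeats, and 4 of them, IFIT1, IFIT2, IFIT3 and IFIT5, were read from the 56657 rows of the deposited count table by their symbols. RNA was sequenced at day 7 from TE5 cells, an established esophageal squamous cell carcinoma line, in 2 libraries labelled as NUP153 knockdown (shNUP153) and 2 labelled WT with a control hairpin (shControl). Both groups had been infected with lentivirus carrying short hairpin RNA and selected with puromycin, and no added interferon is named in the labels. The comparison asks what happens to RNA levels when NUP153, a protein of the nuclear pore basket, is depleted. In the labels the shNUP153 libraries are marked g1 for replicate 1 and g2 for replicate 2. If these marks stand for different hairpins, which the sources used here do not say, the SD over the shNUP153 libraries includes a difference between hairpins. Off-target effects cannot be told apart from effects of NUP153 loss. The family was chosen with its fold changes in this same contrast already known, so the shNUP153 and shControl values of the 4 genes are given as a description, with no test.

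IFIT proteins are made in small amounts in most resting cells and in large amounts after type I or type III interferon or viral RNA has been sensed. IFIT1 binds RNA whose cap lacks ribose methylation and blocks its translation. IFIT3 has no known enzymatic activity, and holds IFIT1 and IFIT2 in a stable complex. IFIT2 binds double-stranded RNA and is linked to apoptosis, and IFIT5 binds RNA with a triphosphate at its start. Transcription of the family runs through the interferon-stimulated response element (ISRE), a DNA motif bound by complexes that hold STAT2 and IRF9 or by other IRF proteins.

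The promoter windows below, from RefSeq on GRCh38.p14, are shown because the ISRE letters are what these genes are known to share. Each window runs from 250 bases before to 50 bases after a start site, on the plus strand, 5′ to 3′. Capitals mark the ISRE core, searched on both strands as GAAA, any 2 bases and GAAA again. Windows were matched by symbol for 3 of the 4 genes, with 2 start sites for IFIT3. IFIT2 had no entry.
IFIT1 chr10:89392373-89392672: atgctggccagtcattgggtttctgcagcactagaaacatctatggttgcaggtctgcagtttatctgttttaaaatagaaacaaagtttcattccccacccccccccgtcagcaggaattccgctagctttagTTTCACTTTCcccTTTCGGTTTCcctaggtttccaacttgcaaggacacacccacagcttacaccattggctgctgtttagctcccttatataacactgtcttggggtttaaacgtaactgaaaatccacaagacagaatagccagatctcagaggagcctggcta
IFIT3 upstream start chr10:89327747-89328046: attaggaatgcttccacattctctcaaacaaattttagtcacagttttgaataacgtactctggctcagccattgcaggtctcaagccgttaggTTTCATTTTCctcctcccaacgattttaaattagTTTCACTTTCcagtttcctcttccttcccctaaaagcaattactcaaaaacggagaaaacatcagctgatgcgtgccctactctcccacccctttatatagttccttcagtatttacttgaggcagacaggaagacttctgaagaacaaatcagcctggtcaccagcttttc
IFIT3 downstream start chr10:89332279-89332578: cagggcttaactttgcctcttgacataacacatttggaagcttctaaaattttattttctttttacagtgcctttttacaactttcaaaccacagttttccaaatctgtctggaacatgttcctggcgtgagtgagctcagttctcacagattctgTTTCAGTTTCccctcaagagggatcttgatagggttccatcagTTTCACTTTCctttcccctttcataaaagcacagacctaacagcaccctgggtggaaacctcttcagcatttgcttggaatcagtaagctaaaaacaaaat
IFIT5 chr10:89414318-89414617: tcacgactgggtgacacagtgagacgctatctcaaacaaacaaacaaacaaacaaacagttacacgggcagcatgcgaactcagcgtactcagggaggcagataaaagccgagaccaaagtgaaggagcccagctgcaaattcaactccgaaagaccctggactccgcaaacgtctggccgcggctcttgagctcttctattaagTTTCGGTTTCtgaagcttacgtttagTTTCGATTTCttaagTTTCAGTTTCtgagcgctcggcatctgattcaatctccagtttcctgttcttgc

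All 4 windows held the ISRE core, each time as its reverse complement on the strand shown (TTTC, any 2 bases, TTTC). IFIT1 had it at bases -116 and -103 from the start site. IFIT3 had it at -156 and -122 before its upstream start, and at -94 and -51 before its downstream start. In IFIT5 the 3 matches lay closer to the RefSeq start, at -45, -19 and -4, the last one running across it. All these distances count from RefSeq starts. The GENCODE 29 gene models of IFIT1 (89392546) and IFIT3 (89327894) start upstream of the RefSeq ones, and that of IFIT5 (89414586) downstream. From the GENCODE starts the IFIT5 matches do not all lie closer than those of IFIT1, and none crosses the start. Of all 35116 promoter windows in the table, 3.57% held the core, and 27 of 47 windows (57.4%) did among 34 other interferon-stimulated effector genes. The longer form, with CT after the second GAAA, was also in all 4 IFIT windows, and was in 0.273% of all windows and 34.0% of the effector windows. TTCNNNGAA, the letters of the gamma-activated site of interferon gamma signalling, was in 0 of the 4 IFIT windows, in 29.8% of the effector windows and in 7.66% of all windows. TATAAA was found only before the upstream start of IFIT3, at -30 on the opposite strand, and was in 11.5% of all windows. In the IFIT windows no match overlapped a match of another motif, apart from the longer ISRE form over its core.

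**Figure D1:**
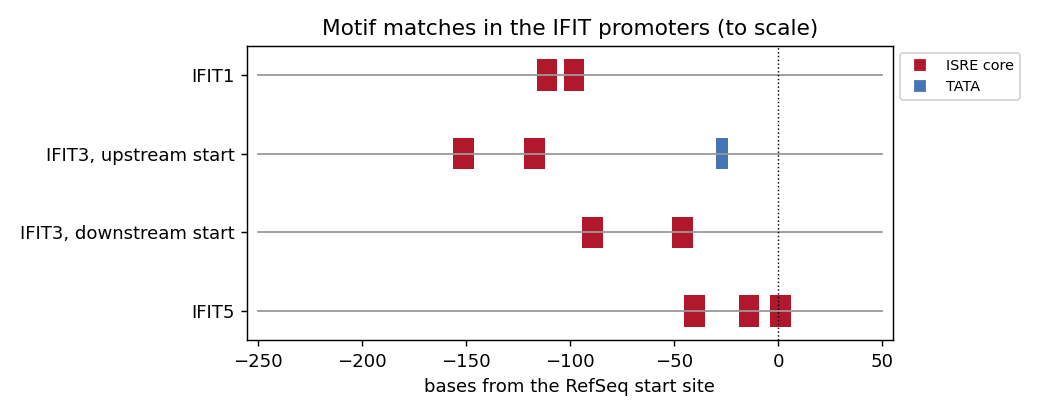
Positions of motif matches in the promoter windows of IFIT1, IFIT3 (2 start sites) and IFIT5, drawn to scale in bases from the RefSeq start site (dotted line). Red boxes are ISRE core matches and the blue box is the TATAAA match. The 3 matches of IFIT5 begin at -45, -19 and -4, the last running across the start site, and those of IFIT1 at -116 and -103.

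The IFIT genes were all at lower levels in shNUP153 cells. Levels are given as CPM, counts scaled to library size with edgeR's TMM factors. IFIT1 (ENSG00000185745) measured 140.2 and 119.5 CPM in the shNUP153 libraries, against 440.9 and 461.5 CPM in the shControl libraries. The group means were 129.8 ± 14.64 CPM in shNUP153 and 451.2 ± 14.52 CPM in shControl (SD, n = 2 each). Both shNUP153 libraries lay far below both shControl libraries, and the fitted log2 fold change was -1.80 (SE 0.0546), 3.47-fold lower. In the authors' deposited table, whose ratio carries no correction for library size, the log2 ratio of IFIT1 is -1.77.

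IFIT3 (ENSG00000119917), the partner of IFIT1, measured 130.9 and 115.2 CPM in shNUP153, against 372.7 and 389.9 CPM in shControl. Its group means were 123.0 ± 11.11 CPM in shNUP153 and 381.3 ± 12.14 CPM in shControl (SD, n = 2 each), and its fitted log2 fold change was -1.63 (SE 0.0525), 3.10-fold lower. The groups again did not overlap. What was left of the shControl level came to 28.8% for IFIT1 and 32.3% for IFIT3, the lowest shares in the family.

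IFIT2 (ENSG00000119922) measured 104.8 and 89.3 CPM in shNUP153, against 200.0 and 191.5 CPM in shControl. The means were 97.03 ± 10.92 CPM in shNUP153 and 195.8 ± 5.954 CPM in shControl (SD, n = 2 each). Its log2 fold change was -1.01 (SE 0.0571), so that 49.6% of the shControl level was left. IFIT5 (ENSG00000152778) measured 37.36 and 37.68 CPM in shNUP153, against 70.32 and 72.99 CPM in shControl. Its means were 37.52 ± 0.2249 CPM in shNUP153 and 71.66 ± 1.885 CPM in shControl (SD, n = 2 each), which left 52.3% (log2 fold change -0.93, SE 0.0633). For IFIT2 and IFIT5 as well, neither shNUP153 library reached the lower shControl library.

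The shNUP153 and shControl libraries did not overlap for 4 of 4 members, as they did not for 64.4% of the 16817 tested genes in either direction and for 32.2% with the lower values in shNUP153. Nothing is read from that count, since the members were chosen on this contrast. The median log2 fold change was -1.32 over the 4 genes and 0.01 over all tested genes. The 4 genes together summed to 413.2 and 361.6 CPM in shNUP153 and to 1084 and 1116 CPM in shControl, 2.84-fold lower on the means. Counted from the lowest log2 fold change among the 11220 tested genes that reach 5 CPM in a group, IFIT1 stood at place 5, IFIT3 at 9, IFIT2 at 67 and IFIT5 at 96. Among all 16817 tested genes these places were 20 for IFIT1, 27 for IFIT3, 184 for IFIT2 and 238 for IFIT5. In these bulk samples, fewer cells that express the genes and less RNA per cell cannot be told apart.

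**Figure D2:**
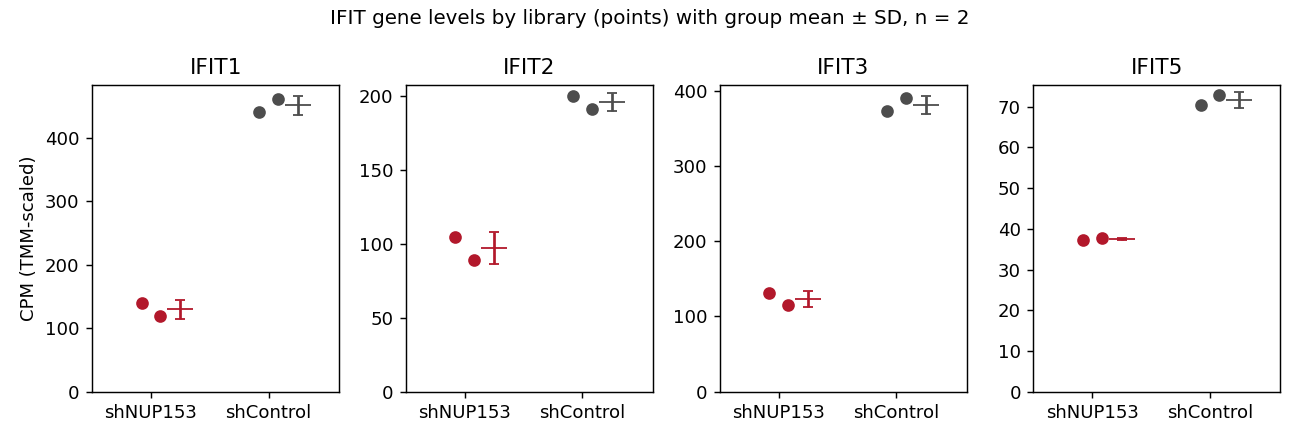
CPM of each IFIT gene in every library (points), with the group mean and SD beside them (n = 2 libraries a group) on axes that start at 0. IFIT1 and IFIT3 show the wider gaps between groups, at 3.47-fold and 3.10-fold, and IFIT2 and IFIT5 the narrower ones, at 2.01-fold and 1.91-fold.

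The targeted gene checks the labels. NUP153 measured 67.9 and 81.9 CPM in shNUP153 and 149 and 142 CPM in shControl, at a fitted log2 difference of -0.96 (SE 0.0619) and an edgeR adjusted p of 1.051e-14. Libraries held 25247932 and 23396626 counts in shNUP153 and 22606593 and 27396268 in shControl, and mitochondrially encoded genes took 5.77% and 6.59% of them in shNUP153 and 5.31% and 5.60% in shControl. Of 11 epithelial markers 10 were tested, and 5 fell and 2 rose, beside 17.4% and 15.0% over all tested genes. These calls do not check the identity of the line. KRT5 was low, at 13.8 and 16.8 CPM in shNUP153 and 23.7 and 25.1 CPM in shControl. EPCAM (log2 fold change -1.02), CDH1 (-0.63) and KRT5 (-0.68) were among those that fell, and KRT17 rose (0.76), with 1250 and 1240 CPM in shNUP153 and 745 and 724 CPM in shControl. TP63 stood at 231 and 238 CPM in shNUP153 and 250 and 246 CPM in shControl and did not pass (-0.08), and KRT14 was nearly absent at 6 to 13 counts. The part of these changes in the IFIT values was not tested. The 6 blood cell markers summed to 0.424 and 1.05 CPM in shNUP153 and to 0.947 and 1.05 CPM in shControl, with PTPRC at 0 counts in both shNUP153 libraries and 1 and 3 counts in shControl. The 5 fibroblast markers summed to at most 1.10 CPM in any library, with DCN and LUM at 0 in all 4. Of 3 endothelial markers, CDH5 and VWF rose and PECAM1 had 3 and 1 counts in shNUP153 and 0 in both shControl libraries, with sums of 25.1 and 24.0 CPM in shNUP153 and 12.2 and 11.1 CPM in shControl. The part of the endothelial markers was not tested either.

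Levels of different genes are comparable only per length. Per kilobase of all annotated exons joined (GENCODE 29), the order in shControl was IFIT3, IFIT1, IFIT2 and IFIT5, and it was the same in shNUP153. IFIT3 stood at 46.6 ± 4.21 CPM per kilobase in shNUP153 and 144 ± 4.60 in shControl (SD, n = 2 each). IFIT1 stood at 28.1 ± 3.17 in shNUP153 and 97.8 ± 3.15 in shControl on the same scale. IFIT2 stood at 23.7 ± 2.66 CPM per kilobase in shNUP153 and 47.7 ± 1.45 in shControl, and IFIT5 at 9.34 ± 0.0560 in shNUP153 and 17.8 ± 0.470 in shControl. Within shNUP153, IFIT1 (30.4 and 25.9) and IFIT2 (25.5 and 21.8) lay next to each other, with IFIT1 above IFIT2 in each library. Across libraries, IFIT2 in replicate 1 came within 1 SD of IFIT1 in replicate 2. Within shControl every neighbouring pair of members was separated by many times its SD.

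The place of IFIT1 in that order rests on which transcript is counted. Its joined exons come to 4613 bases and its shortest annotated transcript to 1880, and per kilobase of that transcript it measured 74.6 and 63.6 in shNUP153 and 235 and 245 in shControl. On that scale IFIT3 measured 53.3 and 46.9 in shNUP153 and 152 and 159 in shControl, which puts IFIT1 above IFIT3 in both groups. With joined exons, 97.8% of tested genes had a lower level per kilobase than IFIT3 in shControl, 96.3% than IFIT1, 91.2% than IFIT2 and 77.7% than IFIT5. In shNUP153 these shares were 91.4% for IFIT3, 85.5% for IFIT1, 82.9% for IFIT2 and 65.3% for IFIT5. The family was thus among the more abundant transcripts of the control cells and stayed above the middle of the range in the depleted ones.

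Because the members did not change by the same factor, the make-up of the family's RNA differed between groups, a measure that needs no scaling between libraries. IFIT1 made up 33.9% (95% Wilson interval 33.0 to 34.8) and 33.0% (32.1 to 34.0) of the 4 genes' counts in shNUP153, against 40.7% (40.1 to 41.3) and 41.4% (40.8 to 41.9) in shControl. IFIT2 took 25.4% (24.5 to 26.2) and 24.7% (23.8 to 25.6) in shNUP153, against 18.4% (18.0 to 18.9) and 17.2% (16.7 to 17.6) in shControl. IFIT5 took 9.04% (8.51 to 9.60) and 10.4% (9.79 to 11.1) in shNUP153, against 6.49% (6.18 to 6.81) and 6.54% (6.27 to 6.83) in shControl. The share of IFIT3 differed least, at 31.7% and 31.8% in shNUP153 and 34.4% and 34.9% in shControl. These intervals cover counting error only, and they take reads as independent molecules, which sequenced reads without molecular identifiers are not. They leave out the spread between libraries. The intervals of the replicates did not overlap for IFIT5 in shNUP153 or for IFIT2 in shControl.

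Ratios between members give the same picture in counts. There were 1.34 IFIT1 counts for each IFIT2 count in both shNUP153 libraries, against 2.20 and 2.41 in the shControl libraries. IFIT1 over IFIT3 was 1.07 and 1.04 in shNUP153 and 1.18 in both shControl libraries. IFIT2 over IFIT5 was 2.80 and 2.37 in shNUP153 and 2.84 and 2.62 in shControl, the only one of these 3 ratios whose groups overlap.

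**Figure D3:**
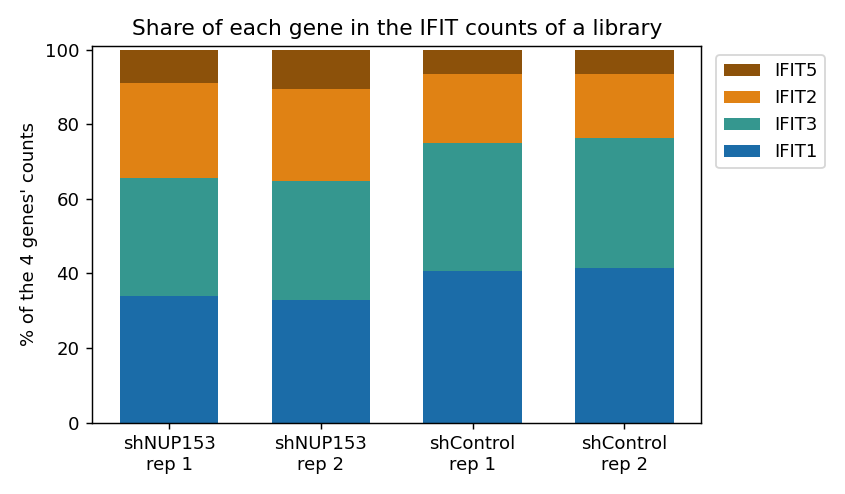
Stacked shares of each gene in the counts of the 4 IFIT genes, per library. The IFIT1 share is 33.9% and 33.0% in shNUP153 and 40.7% and 41.4% in shControl, and the IFIT2 and IFIT5 shares are larger in shNUP153.

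Within a group, the libraries also differed. In shNUP153, replicate 1 exceeded replicate 2 by 1.17 times for IFIT1 (exact 95% interval 1.12 to 1.23, counting error only), 1.17 times for IFIT2 (1.11 to 1.24) and 1.14 times for IFIT3 (1.08 to 1.20), but not for IFIT5 (0.992, 0.904 to 1.09). NUP153 itself ran the other way between these libraries, at 0.829 of replicate 2 (0.777 to 0.885). In shControl, replicate 1 was at 0.956 of replicate 2 for IFIT1 and for IFIT3, at 0.964 for IFIT5 and at 1.04 for IFIT2. Other interferon-stimulated effector genes leaned the same way as IFIT1 and IFIT3 in each group. Of 41 such genes, 36 were higher in shNUP153 replicate 1 than in replicate 2, where 49.8% of all tested genes were. Likewise 35 of the 41 were higher in shControl replicate 2 than in replicate 1, where 50.3% of all tested genes were. All differences between replicates of the IFIT genes were small beside the gap between groups, which on the log2 scale of the nearest libraries was -1.65 for IFIT1, -1.51 for IFIT3, -0.90 for IFIT5 and -0.87 for IFIT2.

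The rest of the interferon pathway was read from lists, with edgeR's quasi-likelihood test over all 16817 genes at an adjusted p under 0.05. The lists were chosen with earlier results of these data known and are described by their counts. Over all tested genes 17.4% fell and 15.0% rose, which with total-count scaling became 2114 falls and 3573 rises in place of 2927 and 2521. Ligand genes were close to the detection limit. IFNB1, the first interferon made after viral sensing, had 5 and 5 counts in shNUP153 and 7 and 10 in shControl and was not tested. IFNL1, a type III interferon, had 15 and 28 counts in shNUP153 and 29 and 59 in shControl. Its log2 fold change was -1.04 (edgeR adjusted p = 0.01934), which did not pass without shNUP153 replicate 1 (0.33) or without shControl replicate 2 (0.36). IFNE, an interferon of epithelia, was at 35 and 32 counts in shNUP153 and 32 and 39 in shControl (log2 fold change -0.11, edgeR adjusted p = 0.8243). The other 6 of 9 ligands had at most 7 counts in any library, and IFNA2, IFNG and IFNK had 0 in all.

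Of 22 genes for interferon receptors and their signalling, 8 fell and 1 rose, beside 17.4% and 15.0% over all genes. Their median log2 fold change was -0.12. USP18, which damps signalling at the receptor and is itself interferon-induced, fell 2.65-fold, with 22.0 and 20.9 CPM in shNUP153 and 52.9 and 60.7 CPM in shControl. STAT2, a transcription factor of the pathway, fell 1.73-fold (edgeR adjusted p = 6.281e-13) and the kinase gene JAK2 1.46-fold (0.0006153). IRF9, which binds the ISRE with STAT2 and was picked out after its values were seen, measured 3.08 and 3.41 CPM in shNUP153 and 4.69 and 5.18 CPM in shControl. Its log2 fold change of -0.61 (edgeR adjusted p = 0.008835) did not pass with DESeq2 (0.0753), without shNUP153 replicate 1 (0.0953) or without shControl replicate 2 (0.0565). The receptor gene IFNAR1 was the 1 that rose, 1.15-fold (edgeR adjusted p = 0.04033), a call lost with DESeq2 (0.147), with no filter on low counts (0.0754), without shNUP153 replicate 1 (0.593) and without shControl replicate 2 (0.176). Without shNUP153 replicate 1 the falls in this list numbered 4, and with total-count scaling 6 of its genes rose.

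Sensors of foreign or misplaced nucleic acid and their adaptors fell in 9 of 13 tested cases and rose in 1, with a median log2 fold change of -0.48, again beside 17.4% and 15.0% over all genes. RIGI (listed as DDX58), which detects triphosphate RNA as IFIT5 does, fell 2.42-fold, with 57.3 and 53.0 CPM in shNUP153 and 134 and 133 CPM in shControl (edgeR adjusted p = 4.497e-19). Its relative IFIH1, a sensor of long double-stranded RNA, fell 1.99-fold, the regulator of both, DHX58, 2.82-fold, and the RNA-activated kinase gene EIF2AK2 1.55-fold. TICAM1, the adaptor of TLR3, rose 1.34-fold (edgeR adjusted p = 6.375e-05). MAVS, the adaptor of RIGI and IFIH1, had a log2 fold change of 0.01, CGAS 0.10 and TBK1 0.21, and these 3 did not pass.

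Among 41 other interferon-stimulated effector genes, 39 fell and 0 rose, beside 17.4% and 15.0% over all genes. Their median log2 fold change was -0.93 (range -2.03 to -0.09). OASL, a member of the oligoadenylate synthetase family, averaged 78.8 ± 1.45 CPM in shNUP153 and 317 ± 25.2 CPM in shControl (SD, n = 2 each). OAS2 fell 3.34-fold, IFI44 2.58-fold and the ISG15 ligase gene HERC5 3.38-fold. Their groups did not overlap, which with lower values in shNUP153 was so for 32.2% of all tested genes. HERC5 stood at 17.4 and 17.1 CPM in shNUP153 and 58.4 and 58.1 CPM in shControl. ZNFX1 (-0.09, edgeR adjusted p = 0.1709) and IFITM2 (-0.65, 0.2454) did not pass. The IFIT genes spread over the lower part of this list. Only 4 of the 41 effectors had a lower log2 fold change than IFIT1 and 6 had a lower one than IFIT3, while 18 lay below IFIT2 and 20 below IFIT5, which thus sat at the middle of the list.

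Genes that make or remove the RNA features that IFIT proteins read moved less. In the list for RNA cap formation and decay, 6 of 14 fell and 2 rose (median -0.12), beside 17.4% and 15.0% over all genes. CMTR1, the enzyme that adds the ribose methylation whose absence IFIT1 detects, and which is interferon-induced, measured 109 and 104 CPM in shNUP153 and 131 and 147 CPM in shControl, at a log2 fold change of -0.39 (edgeR adjusted p = 9.004e-07). The exonuclease gene XRN1 (-0.48), the cap-binding gene NCBP1 (-0.33) and the decapping gene NUDT16 (-0.37) fell too, and NUDT16 did not pass without shNUP153 replicate 2 (edgeR adjusted p = 0.0585). The decapping enzyme gene DCP2 rose by 0.48 (edgeR adjusted p = 0.0005969). CMTR2, which methylates the next nucleotide, rose by 0.20 (0.01605), a call lost with DESeq2 and without either shNUP153 library or shControl replicate 2 (0.0709 to 0.24). DUSP11, which trims RNA triphosphates, was at -0.11 (0.1401) and did not pass.

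The eIF3 complex is the translation initiation factor that IFIT1 and IFIT2 are known to bind. Of its 13 subunit genes 7 fell and 1 rose, beside 17.4% and 15.0% over all tested genes. The changes were small, with a median log2 fold change of -0.17 (range -0.43 to 0.15). EIF3E, the subunit bound by IFIT1, measured 251 and 254 CPM in shNUP153 and 295 and 289 CPM in shControl, and fell (log2 fold change -0.21, edgeR adjusted p = 0.0004319). EIF3L (-0.43), EIF3B (-0.39) and EIF3K (-0.25) fell. EIF3J rose (0.15, edgeR adjusted p = 0.02043), a call lost with DESeq2 and without either shNUP153 library or shControl replicate 2 (0.0512 to 0.246). Without shNUP153 replicate 1 the falls in the eIF3 list numbered 4.

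**Figure D4:**
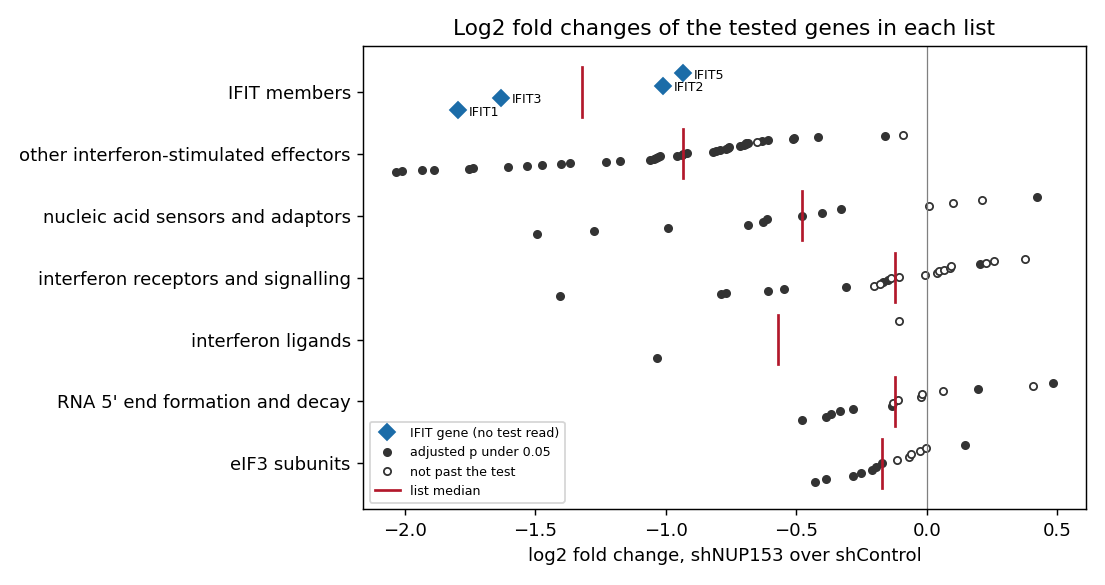
Log2 fold change, shNUP153 over shControl, of each tested gene in 7 lists, with red bars at the list medians. Filled circles passed edgeR's test, open circles did not, and diamonds are the IFIT genes. The effector list lies wholly below 0, the IFIT genes lie between -1.80 and -0.93, and the cap and eIF3 lists stay within 0.5 of 0.

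The promoter letters also gave a description over the whole table. Of the tested genes, 11118 besides the IFIT genes were matched by symbol to a promoter window, and 436 of these held the ISRE core. Of the 436, 127 fell (29.1%) and 52 rose (11.9%), with a median log2 fold change of -0.06, beside 20.1% and 16.2% of the 10682 genes without the core and 20.5% and 16.0% of all 11118. With the genes of every list used here left out, 97 of 405 fell (24.0%) and 52 rose (12.8%), with a median of -0.04. Of 41 genes with the longer form of the core, listed effectors included, 22 fell (53.7%) and 2 rose (4.88%), with a median of -0.36. With all listed genes left out, 6 of 25 fell (24.0%) and 2 rose (8.0%), with a median of -0.13.

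The 4 genes lie in 1 cluster on chromosome 10, on the plus strand, within 137308 bases on GRCh38 (GENCODE 29). IFIT2 spans 89283694 to 89309276, IFIT3 89327894 to 89340971, IFIT1 89392546 to 89406486 and IFIT5 89414586 to 89421001. The 2 members with the larger changes, IFIT3 and IFIT1, are the inner ones. Of 7 tested genes around the cluster 4 fell and 0 rose, beside 17.4% and 15.0% over all tested genes. Their median log2 fold change was -0.22. LIPA, the lysosomal acid lipase gene on the other strand, measured 173 and 175 CPM in shNUP153 and 273 and 274 CPM in shControl, and fell (log2 fold change -0.65, SE 0.0465, edgeR adjusted p = 1.329e-13). In GENCODE 29 its longest model reaches across IFIT2, IFIT3 and IFIT1 and ends 28 bases before IFIT5, and its exons overlap 65 exon bases of IFIT2 and 0 of IFIT3 and IFIT1. The sources used here do not say whether counting used strand, so reads in that overlap cannot be assigned to either gene. On its own strand IFIT2 has 356 exon bases in common with AL353751.1, which had 2 and 0 counts in shNUP153 and 5 and 0 in shControl, and how reads there were assigned is not known.

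Farther out the changes were smaller. KIF20B (-0.22), STAMBPL1 (-0.29) and ACTA2 (-0.46) fell, and these 3 calls did not hold throughout. KIF20B was lost without shNUP153 replicate 1 (edgeR adjusted p = 0.127), STAMBPL1 without either shNUP153 library or shControl replicate 2 and with DESeq2 or total-count scaling (0.0747 to 0.2), and ACTA2 under those settings and with limma voom (0.0644 to 0.614). FAS (-0.15), PANK1 (-0.11) and SLC16A12 (0.24) did not pass, though FAS did without shControl replicate 2 (-0.28, edgeR adjusted p = 0.00199). CH25H, an interferon-induced sterol hydroxylase gene next to LIPA, had 0 counts in both shNUP153 libraries and 0 and 1 in shControl.

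**Figure D5:**
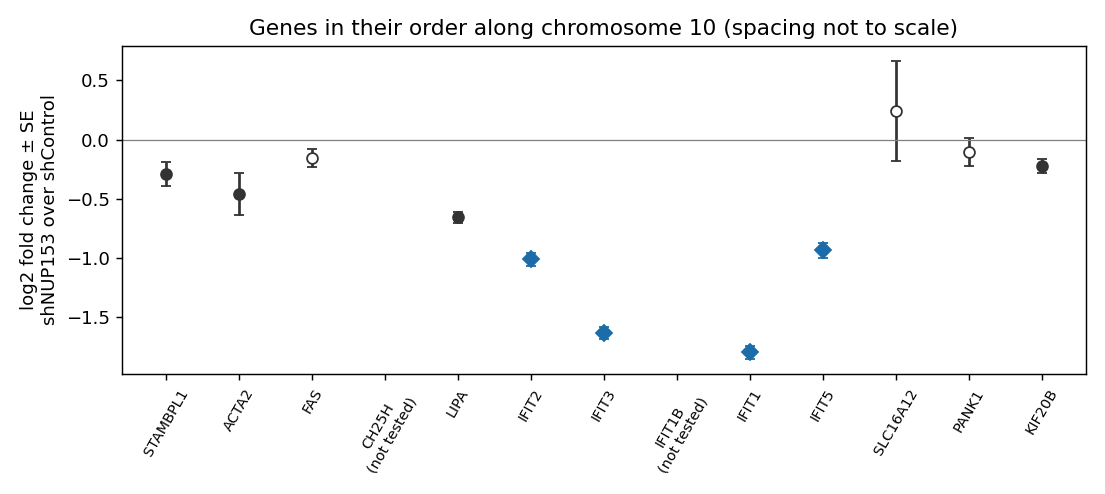
Log2 fold change, shNUP153 over shControl, with SE, of the IFIT genes (diamonds) and the genes beside them (circles, open where edgeR's test was not passed), in their order along chromosome 10. The IFIT genes form a dip between -1.80 and -0.93, LIPA stands at -0.65, and the genes on either side lie between -0.46 and 0.24.

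The relatives of the family were almost silent. IFIT1B, which lies between IFIT3 and IFIT1, had 1 and 0 counts in shNUP153 and 2 and 2 in shControl. The pseudogene IFIT1P1 had 0 and 6 counts in shNUP153 and 4 and 10 in shControl, and IFIT6P had 0 in all libraries. No stretch of 31 bases was common to the transcripts of any pair of the 4 members. IFIT1 had 85 of its 4612 such stretches (1.84%) in common with IFIT1B, 22 with IFIT6P and 15 with IFIT1P1, and IFIT5 had 3 of 3985 in common with IFIT1B. In transcripts of any other gene, IFIT1 had 147 of 4612 (3.19%, over 27 genes) and IFIT2 362 of 4096 (8.84%, over 62 genes). IFIT3 had 200 of 2603 (7.68%), over 4366 genes. Of the IFIT2 stretches, 36 were in LIPA. Reads in those stretches may have been split or dropped in the counting. The IFITM genes are a separate family of membrane proteins that carry a similar symbol. IFITM3 (-0.82) and IFITM1 (-0.94) fell, IFITM10 rose (1.21, edgeR adjusted p = 0.0009573), and IFITM4P (-0.88, edgeR adjusted p = 0.1254) did not pass, while IFITM5, IFITM8P and IFITM9P had at most 2 counts in a library.

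The tested genes whose values over the 4 libraries were most like each member were found by the root mean square difference between log2 CPM values, each gene centred on its own mean. IFIT1 was closest to the receptor kinase gene NTRK2 (0.0281), HERC5 (0.0802) and IFIT3 (0.0850). For IFIT3 the nearest were SOWAHA (0.0341), NTRK2 (0.0625) and RSAD2 (0.0684), the gene of the antiviral protein viperin, with IFIT1 at place 6. NTRK2 and SOWAHA were scarce, at 2.61 to 9.94 CPM and 0.548 to 2.06 CPM over the 4 libraries. IFIT2 was closest to RARRES3 (0.0300), DDX60 (0.0410) and IFIH1 (0.0414), and IFIT5 to CDK18 (0.00674), NID1 (0.00882) and ALPL (0.0181). IFIT5 was at place 41 from IFIT2, and IFIT2 at place 113 from IFIT5, so by this measure IFIT5 had no other member among its 3 nearest genes. With 4 libraries in 2 groups, genes of equal fold change lie close by this measure whatever they do.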

How the data were processed

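The deposited table gives Ensembl gene IDs, symbols and, for each library, a column of whole numbers. Although the file is called FPKM, the values are whole numbers, so they were used as raw counts. Column totals differ between libraries. Tools named without a role in the submitters' processing notes are Bowtie2, deepTools, DESeq2 and kallisto, with the build hg19. The sources used here do not give the counting tool, the annotation or the use of strand. The log2 ratio in the authors' deposited table matches unscaled mean counts to within 4.3e-09.

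Genes were kept by filterByExpr (minimum count 10, minimum total 15), which left 16817, all 4 IFIT genes included. The test was edgeR 4.0.16's, run in R 4.3.3 (TMM scaling, quasi-likelihood test, two-sided, Benjamini-Hochberg adjustment, threshold 0.05), and SE values follow from the fold change and F. The labels name no separate cultures or infections, so p-values cover the spread between these libraries alone, which may be technical. Replicates differed by more than sampling noise (chi-square per gene 3.09 in shNUP153 and 3.57 in shControl). The procedure was tested on simulated data.

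The members and lists were chosen with earlier results of these data known. Named were NUP153, the members, rows whose symbol begins with IFIT, all tested genes beside the cluster, up to 4 genes of each list with the smallest p, those needed to fill out small counts, and the 3 genes most like each member (log2 CPM with a prior count of 2). IRF9, MAVS, CGAS, TBK1, DUSP11, IFNB1, AL353751.1 and the markers TP63, KRT14, PTPRC, PECAM1, DCN and LUM were chosen after their values were seen. A gene that this rule names is left out. Exon lengths, overlaps and 31-base stretches came from GENCODE 29, promoters from RefSeq on GRCh38.p14. Alternatives were RLE and total-count scaling, no filter, DESeq2 1.42.0, limma voom 3.58.1, a replicate block and leaving out each library.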

Additional observations from a re-analysis of the deposited data

How the results depend on the processing

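The log2 fold changes of the 4 IFIT genes kept their sign under all 10 alternatives to the fit, between -1.92 and -1.69 for IFIT1, -1.73 and -1.54 for IFIT3, -1.14 and -0.90 for IFIT2, and -0.96 and -0.87 for IFIT5, and their median ran from -1.43 to -1.24. The effector list had 37 to 39 falls and the sensor list 9 throughout.

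The number of genes changed was 5448, against 3556 with DESeq2 and 3072 to 5201 when 1 library was left out (3072 without shNUP153 replicate 1, 3342 without shNUP153 replicate 2). With total-count scaling, rises numbered 6 in the receptor and signalling list and 3 in the sensor list, and falls beside the cluster 2. With DESeq2 there were 0 rises in the receptor list, 1 in the cap list and 0 in the eIF3 list, and 2 falls beside the cluster. With no filter on low counts the receptor list had 0 rises. When 1 library was left out, falls ran from 0 to 1 for ligands, 4 to 8 for receptors, 4 to 8 for eIF3 and 1 to 4 beside the cluster, and rises from 0 to 1 for receptors, 1 to 2 for the cap list and 0 to 1 for eIF3. The cause was not tested. DESeq2 gave IFNL1 and XAF1 no adjusted p.

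The longer form of the ISRE core was in 0.273% of all windows and 34.0% of effector windows, against 3.57% and 57.4% for the core. The log2 level of IFIT1 over IFIT3 in shControl was -0.56 per kilobase of joined exons, 0.63 per kilobase of the shortest transcript, a scale added after seeing the data, and 0.24 in CPM.

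Same-numbered libraries did not deviate together (correlation over genes -0.00365), so the replicate number was not taken as a pairing. With it as a replicate block 5465 genes changed, and SOCS3 (adjusted p = 0.0512) was the only listed gene whose call changed.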
